A study of Mus musculus with 4 samples.

Results

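In mouse kidney fibroblasts, 1043 open chromatin regions had no counterpart in the list of open regions of 3T3 fibroblasts. They were all rows of the kidney fibroblast table, outside the mitochondrial genome and chromosome Y, that overlapped no row of the 3T3 table by 1 bp or more on the same chromosome. They made up 1043 of 5716 such rows, and the other 4673 overlapped a 3T3 row. Accessibility was measured by ATAC-seq: the Tn5 transposase inserts adapters where DNA is exposed, so that the signal of a region follows how open it is. The kidney fibroblasts were Kindlin-2 floxed cells and Kindlin-2 knockout cells, and the 3T3 embryo fibroblasts were Rela wild-type and Rela knockout cells, all labelled as passage 15 to 20. The labels do not state how the knockouts were made or how many clones they came from. Kindlin-2 helps to activate integrins by binding their cytoplasmic tails, and Rela is a subunit of NF-kB. Only 1 value per region and genotype was deposited, which leaves no replicate check and allows no test between genotypes.

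Open chromatin marks promoters, enhancers and other sites where proteins bind DNA. Many promoters, above all those rich in CpG dinucleotides, are open in most cell types, whereas enhancers and other sites away from promoters differ more between cell types. Absence from the 3T3 table says only that no 3T3 region was listed there: the tables held 5727 and 28445 rows, their depth is unknown, and the sources used here do not say how regions were called.

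The label of the cells could be checked only in part. Of 24 fibroblast marker genes, 1 had a region in the kidney fibroblast table (P4ha1, which encodes a subunit of collagen prolyl hydroxylase), and Col1a1, Col1a2, Pdgfra and Vim had none. Of 29 kidney epithelium markers the table held 1 (Elf3), of 21 kidney stroma markers 2 and of 14 leukocyte markers 1 (Ptprc). It held 0 of the endothelial, smooth muscle and pericyte, adipocyte, neural, skeletal muscle, and chondrocyte and osteoblast markers. Nuclear signal summed to 134590 in floxed and 114138 in knockout cells, after 91.9% and 86.2% of all signal was left aside in mitochondrial and chromosome Y rows. The regions without a 3T3 counterpart held 10734 and 14984 of it, which is 7.98% and 13.1%.

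Sequence was at hand as windows of 300 bases around RefSeq transcription starts (GRCm38.p6), and 95 of the 219 promoter regions without a 3T3 counterpart overlapped one. The 7 windows below are those on which the gene results turn: Hook1, the strongest promoter of the set, F11r and Elf3, which are known from epithelia, Fermt1, Kif12 and Rassf6, with signal concentrated in knockout cells, and Aldh16a1, with signal concentrated in floxed cells. Each runs 5′ to 3′ on the strand of its gene, with the start at base 251. Capitals mark matches on either strand to 10 short motifs: AP-1 TGANTCA, TEAD GGAATG, ETS CCGGAA, NFY CCAAT, SP/KLF GGGCGG, NRF1, CRE TGACGTCA, NF-kB GGGNNTTCC, E-box CACGTG and RUNX TGTGGT.
Hook1, chr4:95967129-95967428, plus strand: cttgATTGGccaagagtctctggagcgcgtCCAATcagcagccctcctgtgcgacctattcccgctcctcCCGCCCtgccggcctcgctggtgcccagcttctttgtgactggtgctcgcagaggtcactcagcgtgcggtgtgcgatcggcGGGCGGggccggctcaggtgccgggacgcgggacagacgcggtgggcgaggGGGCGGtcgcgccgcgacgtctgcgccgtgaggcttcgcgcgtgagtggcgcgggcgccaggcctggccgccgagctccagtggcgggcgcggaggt
F11r, chr1:171437311-171437610, plus strand: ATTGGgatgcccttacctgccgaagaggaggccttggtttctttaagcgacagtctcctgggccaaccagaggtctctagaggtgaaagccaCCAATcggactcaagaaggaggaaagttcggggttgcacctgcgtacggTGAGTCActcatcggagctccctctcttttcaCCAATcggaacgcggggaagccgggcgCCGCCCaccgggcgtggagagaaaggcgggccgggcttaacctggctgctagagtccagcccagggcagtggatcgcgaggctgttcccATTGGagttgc
Elf3, chr1:135258423-135258722, minus strand: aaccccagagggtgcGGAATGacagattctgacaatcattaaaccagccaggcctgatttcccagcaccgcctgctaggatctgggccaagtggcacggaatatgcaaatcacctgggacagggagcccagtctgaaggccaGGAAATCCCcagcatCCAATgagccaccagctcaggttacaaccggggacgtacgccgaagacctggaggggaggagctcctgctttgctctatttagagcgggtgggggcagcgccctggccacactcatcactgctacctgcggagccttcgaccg
Fermt1 region, start window of Gm14102, chr2:132945502-132945801, plus strand: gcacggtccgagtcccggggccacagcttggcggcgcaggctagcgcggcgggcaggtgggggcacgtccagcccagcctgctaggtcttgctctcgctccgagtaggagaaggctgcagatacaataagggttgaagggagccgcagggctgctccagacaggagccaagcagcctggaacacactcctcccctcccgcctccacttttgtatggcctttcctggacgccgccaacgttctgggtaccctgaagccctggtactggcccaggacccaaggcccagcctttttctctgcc
Kif12, chr4:63172082-63172381, minus strand: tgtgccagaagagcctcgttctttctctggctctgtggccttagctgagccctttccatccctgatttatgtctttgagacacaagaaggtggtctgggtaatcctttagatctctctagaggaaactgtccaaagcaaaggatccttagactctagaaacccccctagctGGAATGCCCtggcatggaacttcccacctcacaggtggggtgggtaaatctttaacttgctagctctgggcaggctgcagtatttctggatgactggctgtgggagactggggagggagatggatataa
Rassf6, chr5:90640478-90640777, minus strand: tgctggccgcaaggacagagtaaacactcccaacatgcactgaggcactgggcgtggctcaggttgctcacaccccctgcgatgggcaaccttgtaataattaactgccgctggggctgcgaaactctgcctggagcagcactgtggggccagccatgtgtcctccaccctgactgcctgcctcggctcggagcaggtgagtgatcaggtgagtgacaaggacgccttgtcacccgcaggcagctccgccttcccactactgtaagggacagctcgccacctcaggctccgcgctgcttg
Aldh16a1, chr7:45154487-45154786, minus strand: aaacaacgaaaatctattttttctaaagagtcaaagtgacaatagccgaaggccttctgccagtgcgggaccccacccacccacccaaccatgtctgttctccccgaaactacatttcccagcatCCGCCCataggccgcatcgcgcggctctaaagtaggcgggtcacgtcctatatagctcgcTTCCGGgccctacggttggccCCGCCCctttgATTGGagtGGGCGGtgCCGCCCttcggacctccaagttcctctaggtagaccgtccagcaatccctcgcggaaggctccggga

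The Hook1, Fermt1, Kif12 and Rassf6 windows lay wholly inside the deposited regions, and those of F11r, Elf3 and Aldh16a1 shared 247, 210 and 131 bases with theirs. The Fermt1 region covered the start of the non-coding gene Gm14102 on the opposite strand, and the RefSeq window of Fermt1 itself lay 58 bp past the region's end. The Hook1 window had 72.7% G and C and a CpG ratio (observed over expected) of 1.02, whereas the Kif12 window had 50.3% and a ratio of 0.05, with 1 CG dinucleotide. Ratios for F11r, Elf3, the Fermt1 region, Rassf6 and Aldh16a1 were 0.70, 0.46, 0.51, 0.46 and 0.90. Matches to NFY letters numbered 4 in F11r, 2 in Hook1 and 1 each in Elf3 and Aldh16a1. SP/KLF letters matched 4 times in Aldh16a1 and 3 times in Hook1. The AP-1 letters matched once in F11r, 109 bases before the start. In Kif12 the TEAD and NF-kB matches overlapped, as both began at base 172. The windows of the Fermt1 region and of Rassf6 held none of the 10 motifs, which says only that these letters are not in them.

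Most regions without a 3T3 counterpart lay away from promoters. Of the 1043, 219 (21.0%) were centred no more than 2500 bp from the annotated start of their gene (called promoter regions below) and 74 (7.09%) were assigned to a gene farther away. The other 750 (71.9%) had no assigned gene. Among the 4673 regions shared with 3T3 cells these shares were 52.5%, 4.45% and 43.1%. Counted the other way, 8.2% of all promoter rows of the kidney fibroblast table had no 3T3 counterpart, against 27.1% of rows without a gene. Regions of 1 table are not replicates, so these shares were set side by side without a test.

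**Figure D1:**
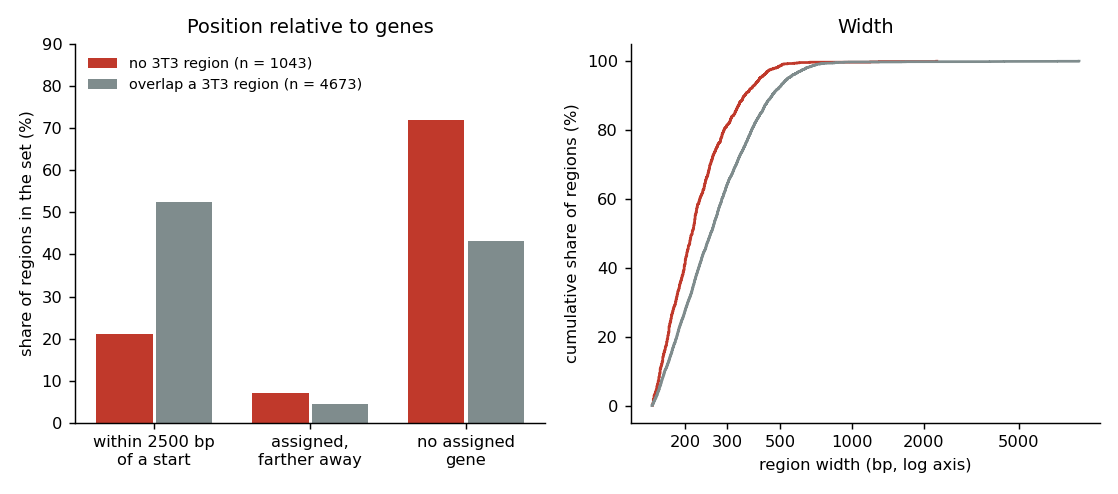
Position and width of kidney fibroblast regions with no 3T3 counterpart (1043, red) and of those that overlap a 3T3 region (4673, grey). Bars give the share of each set within 2500 bp of a start (21.0% and 52.5%), assigned but farther away, or without an assigned gene (71.9% and 43.1%); curves give the cumulative share by width in bp on a log axis, with medians of 214 and 256 bp.

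Compared without regard to signal, the regions were narrow, and they were weak. Their median width was 214 bp (quartiles 174 and 271), against 256 bp (194 and 352) for shared regions. The median signal was 8 in floxed and 12 in knockout cells, against 18 and 16. Per 100 bp of width the median of the mean signal was 4.74, against 6.86. When all 5716 rows were divided into 4 groups by mean signal, the weakest group (mean signal up to 10.5) held 551 of the regions, and the strongest (25.5 and above) held 63. The share without a 3T3 counterpart thus ran from 36.4% of rows in the weakest group to 18.6%, 12.0% and 4.54% in the stronger ones. At like signal the regions were not narrower in the 3 weaker groups, where their median widths were 182, 230 and 308 bp against 178, 212 and 271 bp for shared regions. In the strongest group the medians were 367 and 404 bp. The promoter share was smaller at every level: 22.1%, 22.4%, 17.6% and 14.3% from the weakest to the strongest group, against 48.4%, 48.4%, 50.3% and 61.0% of shared regions.

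The nearest 3T3 region was usually far away. The median gap was 20349 bp (quartiles 7949 and 53085), 50 regions lay within 1000 bp of a 3T3 region, and 122 lay over 100000 bp from one. Promoters made up 40.0% of the 50 nearest and 16.0%, 22.4% and 17.2% of those in the next 3 classes of distance. The closest to the limit of the rule was a region of Tfrc, the transferrin receptor gene, 4 bp from a 3T3 row, which held 3 in floxed and 9 in knockout cells. Regions of Ube2e1, which encodes a ubiquitin-conjugating enzyme (4 and 3), and of the acetylcholine receptor subunit gene Chrnb1 (15 and 16) followed at 15 and 18 bp. Just outside the rule were 3 rows without a gene symbol that overlapped a 3T3 row by 3, 10 and 10 bp and held 0 and 8, 1 and 13, and 5 and 14. By chromosome, the share of rows without a 3T3 counterpart ran from 8.79% on chromosome 9 (8 of 91 rows) to 22.7% on chromosome 4 (75 of 330).

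Signal was higher in Kindlin-2 knockout than in floxed cells at most of these regions. It was above the floxed value in 775 of 1043 regions (74.3%), below it in 238 and equal in 30, whereas among shared regions it was above in 2003 of 4673 (42.9%). The median log2 ratio, log2((knockout + 1)/(floxed + 1)), was 0.64 with quartiles of 0.00 and 1.38, against -0.09 (quartiles -0.55 and 0.45) for shared regions. At least 2-fold higher in the knockout were 399 regions (38.3%), where 16.2% of all 5716 rows were, and at least 2-fold lower were 55 (5.27%), where 9.11% of all rows were. All 1043 passed the minimum mean signal of 1. Under loess scaling, which removes the dependence of the ratio on signal level, 167 regions were 2-fold higher and 100 were lower, with a median log2 ratio of 0.17 against -0.07 for shared regions. The higher regions were then 16.0% of the set, against 8.0% of all rows, and the lower ones 9.59%, which is near the 8.83% of all rows. Among regions of the set beyond the 2-fold limit, 87.9% were on the higher side with the deposited values, 73.7% with quantile and 62.5% with loess scaling. Of all rows, 16.2% were higher and 9.11% lower as deposited, 10.5% and 10.0% with quantile, and 8.0% and 8.83% with loess scaling. Scaling both nuclear sums to be equal moved the median of all rows to 0.22 and that of these regions to 0.86, so that the gap to the shared regions stayed at 0.73.

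**Figure D2:**
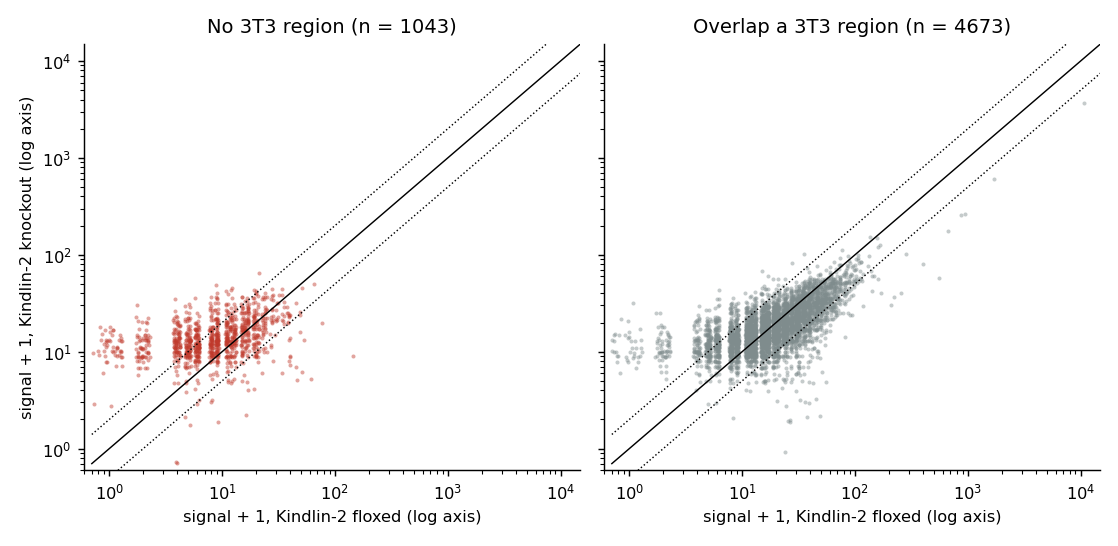
Signal + 1 of each region in Kindlin-2 floxed (horizontal) and knockout cells (vertical), both on log axes, for 1043 regions with no 3T3 counterpart (left) and 4673 that overlap one (right); a small random shift separates equal whole values. The solid line marks equal signal and the dotted lines 2-fold; on the left 399 points lie on or above the upper dotted line and 55 on or below the lower one, with the 2-fold call made on signal + 1.

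The excess of knockout signal went with weak floxed signal. A low floxed value raises the ratio by its construction, so the values behind it are given here. Floxed cells had a signal of 5 or less in 411 of the 1043 regions (39.4%), and the knockout signal there had a median of 10 and a highest value of 35. Knockout cells had a signal of 5 or less in 47 regions (4.51%). A signal of 0 was listed in floxed cells for 49 regions, with knockout values from 2 to 17, and in knockout cells for 2 regions, each with a floxed value of 3. Among shared regions, 9.78% had a floxed and 2.01% a knockout signal of 5 or less. Whether a row was called in 1 genotype or in both is not stated, and its part in these ratios was not tested.

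The ratio differed from that of shared regions also within groups of roughly like signal. The median of the mean signal was 7.5 against 8.5 for shared regions in the weakest group and 30 against 35 in the strongest. It was 13.5 for both in the second group and 19.5 against 20 in the third. The part of these remaining differences in the ratios was not tested. In the weakest of the 4 signal groups, 287 of 551 regions (52.1%) were 2-fold higher and 20 lower in the knockout, against 300 (31.1%) and 35 of 964 shared regions. The median log2 ratios there were 1 and 0.53. In the next 2 groups 23.9% and 24.1% were 2-fold higher, against 10.6% and 6.25% of shared regions, with median log2 ratios of 0.26 and 0.29 against 0.00 and -0.16. In the strongest group 9 were higher and 8 lower of 63, and the median log2 ratio was 0.00 against -0.36. The ranges between quartiles of the log2 ratio overlapped in each of the 4 groups, with -0.19 to 0.90 against -0.45 to 0.47 in the second weakest and -0.72 to 0.67 against -0.76 to 0.01 in the strongest. Chromosome by chromosome, and without regard to signal, the median log2 ratio of these regions was above that of shared regions on 20 of 20 chromosomes. It was above 0 on 19, and on chromosome X it was -0.15 over 7 regions, against -0.19 for shared regions.

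**Figure D3:**
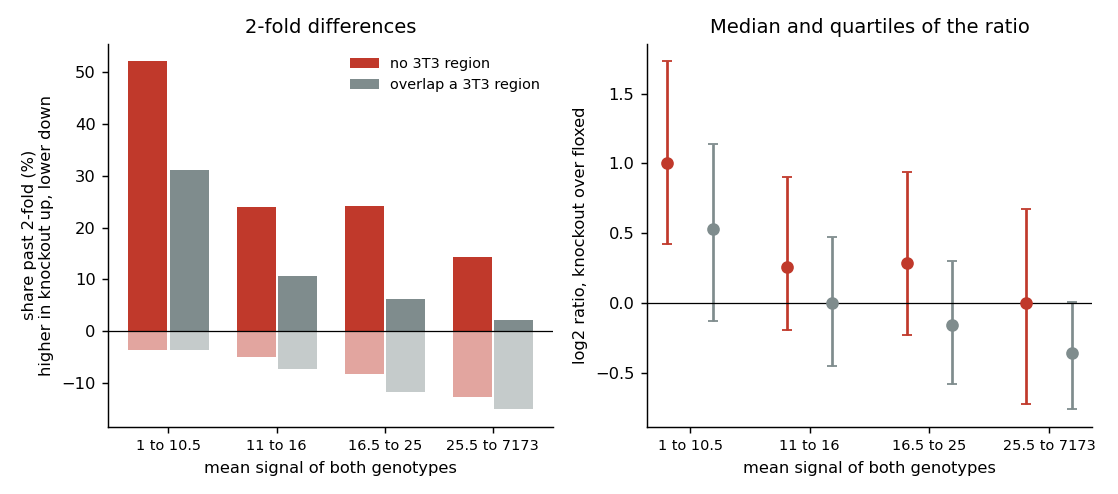
Knockout against floxed signal in 4 groups of rows by mean signal, for regions with no 3T3 counterpart (red) and regions that overlap one (grey). Left, share of regions at least 2-fold higher (upward) or lower (downward, pale), with 52.1% and 31.1% higher in the weakest group; right, median log2 ratio with bars from the lower to the upper quartile, the red medians lying above the grey ones in each group.

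By position, the share 2-fold higher in the knockout was largest for regions without an assigned gene. Of 750, 319 (42.5%) were 2-fold higher and 38 lower, with a median log2 ratio of 0.74. Of 219 promoter regions, 55 (25.1%) were higher and 14 lower with a median of 0.35, and of 74 regions assigned to a gene farther away 25 (33.8%) were higher and 3 lower with a median of 0.58. For shared regions without a gene, at promoters and farther from a gene the higher shares were 15.5%, 7.63% and 12.5%, the lower shares 8.2%, 10.9% and 15.9%, and the medians 0.04, -0.19 and 0.00. Among regions without a 3T3 counterpart, the order by position held in the 2 weaker signal groups. In the weakest, 59.0% of those without a gene and 31.1% of promoters were higher, and in the next 28.3% and 15.5%. The order did not hold in the stronger groups, with shares of 23.8% and 23.3% in the third. In the strongest, 5 of 47 regions without a gene were higher and 8 lower (median -0.15). There, 1 of 9 promoters was higher and 0 lower (median 0.37). Shared regions had this order in each signal group, with 37.7% without a gene and 24.6% of promoters higher in the weakest. The shares were 14.4% and 6.73% in the next, 8.72% and 4.14% in the third, and 3.6% and 1.12% in the strongest.

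The 293 regions with an assigned gene belonged to 289 genes, of which 198 had a symbol. Protein-coding genes accounted for 201 of the 293 (68.6%), against 88.8% for shared regions, and 24 lay at lincRNAs, 17 at processed pseudogenes and 13 at antisense genes. At promoters the centre was a median 212 bp from the start, against 125 bp. The strongest promoter was that of Hook1, a microtubule-binding adaptor, on chromosome 4 (95966998 to 95967661, 90 bp from the start), where floxed cells had 33 and knockout cells 43. Sarg held 23 and 39, while a shared region of the same gene, 2606 bp from its start, held 16 and 11. The 3T3 table had a Sarg row 2886 bp from the start (59 in wild-type and 67 in Rela knockout cells). Dennd3, which encodes an exchange factor of Rab proteins, held 38 and 22, 19 bp from a 3T3 row of the same gene. Scin, which encodes the actin-severing protein adseverin, held 19 and 39 and stood at the 2-fold limit, with a log2 ratio of 0.45 once chromosome medians were centred. The transcription factor gene Sim1 (20 and 30) and Svip, which encodes an interactor of the ATPase VCP (27 and 20), were within 2-fold. These signals are totals per region, not per length.

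Among regions with a symbol and at least median signal, knockout signal led at Kif12, a kinesin gene (4 and 30), and at Fermt1, which encodes the Kindlin-2 relative kindlin-1 (4 and 28). Nab1, a corepressor of EGR factors, held 3 and 20, the transcription factor gene Carf held 4 and 20, and Rassf6, of the Ras-association family, held 7 and 26. Trabd2b, which encodes a protease that inactivates Wnt proteins, held 11 and 45 at a region 2990 bp from its start. Floxed signal led at Metap2, a methionine aminopeptidase gene, with 39 and 8 at 2405 bp from its start, and at Aldh16a1, of the aldehyde dehydrogenase family, with 22 and 5. By RefSeq the centre of the Carf region also lay inside Wdr12, and that of the Aldh16a1 region also inside Pih1d1. The promoters of Sh3glb1, which encodes the membrane-curving endophilin-B1, and of the centrosome protein gene Nin each held 19 and 8. Gnai3, which encodes an inhibitory G protein subunit, held 23 and 10, and the helix-loop-helix gene Tcf24 held 18 and 8. All of these kept a difference in the same direction under each scaling tried. With nuclear sums made equal, Sh3glb1 (log2 ratio -0.94), Nin (-0.94), Gnai3 (-0.91) and Tcf24 (-0.86) were within 2-fold.

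Beyond promoters the strongest region lay 3623 bp from the start of Ctsz, the cathepsin Z gene, with 20 and 63 (log2 ratio 1.61, and 1.46 to 1.93 under the other scalings). Fstl3, which encodes an activin-binding follistatin relative, held 48 and 25. Abca4, a retinal lipid transporter gene, held 30 and 31, and the Polycomb gene Phc1 held 19 and 41. Slc34a2, a phosphate transporter gene, held 33 and 23, within 2-fold.

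The pathway and marker lists held 535 genes in 20 lists, of which 77 had a kidney fibroblast row and 5 (6.49%) had one without a 3T3 counterpart. Of all rows with an assigned gene, 9.92% had none, so single lists with few measured genes would hold 1 or 0 at that share. In the integrin adhesion list it was 1 of 11 measured genes, Fermt1, and for TGF-beta signalling and myofibroblasts 1 of 7. The latter was Smad4, whose product partners the receptor-activated SMADs, with 11 and 35 at 4654 bp from its start. Of 4 measured interferon response genes there were 2: Rsad2, which encodes the antiviral protein viperin (1 and 13), and Ifih1, the RNA sensor gene (7 and 13). Rsad2 was at a log2 ratio of 2.81 as deposited and 0.97 after loess scaling. The 1 measured kidney epithelium gene, Elf3, an ETS factor of epithelial cells, held 15 and 19. None of the measured genes of the NF-kB list (9), the YAP and TEAD targets (7), the cell cycle (9), the ribosomal proteins (9), the chromatin modifiers (7), mitochondrial respiration (6) or the extracellular matrix (4) was among them.

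Some genes of the set are known from epithelial cells, though not in every case only from them, including Hook1, Fermt1, Elf3 and Slc34a2 described above. They were picked out after the gene names were seen, so their number is a description and not a count from a list drawn up beforehand. Counted with those 4, the 18 genes had 19 regions, of which 5 were 2-fold higher in the knockout, 2 lower and 12 within 2-fold, where 16.2% of all rows and 38.3% of the set were higher. They had a median log2 ratio of 0.37 and a floxed signal from 0 to 33. The median was 0.64 for the set, but most of the 19 were promoter regions. For all promoter regions of the set the median was 0.35, with 25.1% higher, so the lower median is not shown to be particular to these genes. Such genes were not counted among shared regions, so the group is not shown to be particular to this set. Shared promoters included those of Jup (10 and 11), Scel (24 and 19) and Sprr1a (10 and 14). At cell junctions, F11r, which encodes the tight junction protein JAM-A, held 18 and 31 in a promoter region at chr1:171437364-171437803. The polarity gene Pard6b held 27 and 22, and Perp, a desmosome component gene, held 11 in both. The tight junction scaffold gene Patj held 0 and 9 at 11 bp and 7 and 8 at 365 bp from its start. The first Patj region was at a log2 ratio of 3.32 as deposited and 0.14 after loess scaling.

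Genes of kidney tubules and cilia were also within this group. Mep1a, which encodes the brush border protease meprin alpha, held 29 and 26 at 1630 bp from its start. Pkhd1, which encodes the ciliary protein fibrocystin, held 8 and 15 at its promoter, but the 3T3 table had a row 1457 bp from its start (103 in wild-type and 35 in Rela knockout cells), 1049 bp from this region. Cys1, which encodes the ciliary protein cystin, held 12 and 16. Prom1, which encodes the apical membrane protein prominin-1, held 12 and 15. Mme, the neprilysin gene, held 4 and 12 by the deposited assignment, although the RefSeq coding gene Mme lay 53926 bp away and the region was inside the gene model Gm40064. It had a log2 ratio of 1.38 as deposited and 0.60 after loess scaling. Under other scalings the log2 ratio changed sign for Mep1a (0.04 to 0.09), Cys1 (-0.16 with chromosome medians centred) and the second Patj region (-0.36 with quantile and -0.54 with loess scaling). Genes of skin and mucosa went both ways: Sprr1b held 8 and 12, Sprr2j 1 and 8, Clca2 5 and 11, Tchh 11 and 4 and Muc3 15 and 1. A shared region of Muc3, 3085 bp from its start, held 31 and 2. The 3T3 table had a Muc3 row 3019 bp from the start (16 in wild-type and 2 in Rela knockout cells). The nearest RefSeq coding gene of the Sprr2j region was its relative Sprr2i, 6051 bp away. Sprr2j turned to a log2 ratio of -0.24 after loess scaling. Many of the 19 regions had a low signal, and the median was 11 in floxed and 15 in knockout cells.

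**Figure D4:**
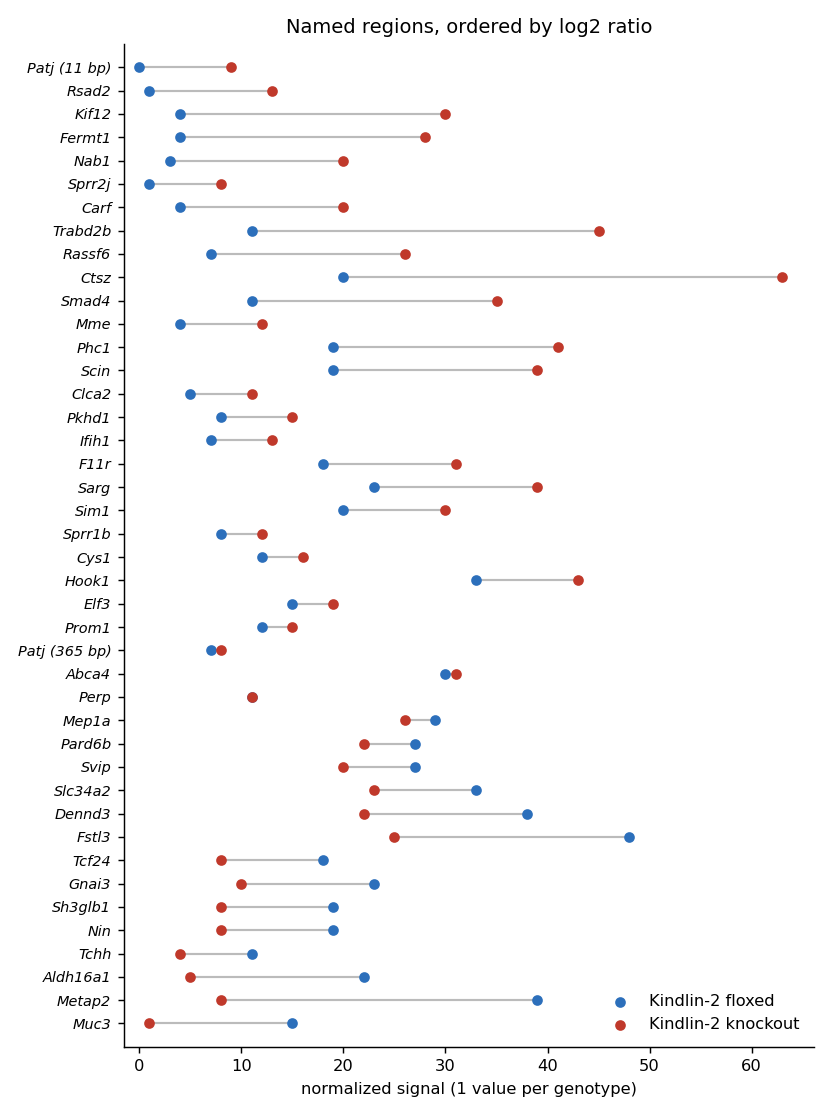
Normalized signal of the named regions in Kindlin-2 floxed (blue) and knockout (red) cells, 1 value per genotype, ordered by log2 ratio with the most knockout-weighted at the top; the distance to the start tells the 2 Patj regions apart, and for Perp the points coincide at 11. Ctsz (20 and 63), Kif12 (4 and 30) and Fermt1 (4 and 28) lie to the knockout side, and Metap2 (39 and 8) and Aldh16a1 (22 and 5) to the floxed side.

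For most of these genes the 3T3 table held no other region either. Of the 293 regions with a gene, 241 belonged to a gene with no row in the 3T3 table and 52 (17.7%) to a gene with a row elsewhere, for 35 of them at the promoter. Ctsz had a 3T3 row 91 bp from its start (70 in wild-type and 60 in Rela knockout cells), and Smad4 had one at 280 bp (56 and 50), so for both the region without a counterpart lay upstream or downstream of a promoter open in 3T3 cells. Mapk8, which encodes the stress kinase JNK1, held 1 and 19 at 3122 bp from its start, while its promoter was listed in both tables, with 29 and 23 in floxed and knockout kidney fibroblasts and 57 and 94 in wild-type and Rela knockout 3T3 cells. Levels of the 2 tables were normalized separately and were not compared.

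The base content of promoter windows was close to that of shared promoters, with a longer tail of CpG-poor windows. Windows overlapped 95 of 219 promoter regions (43.4%) and 1679 of 2452 shared ones (68.5%), and the rest are not described here. The median G and C content was 63.3% over 95 windows and 64.0% over 1675 windows of shared promoters, against 52.7% over all 32851 RefSeq windows. The CpG ratio was at least 0.6 in 74.7% of windows, against 86.7% and 35.8%. The NFY letters CCAAT matched in 31.6% of windows, against 52.8% of shared and 37.4% of all windows, and the ETS letters CCGGAA in 21.1%, against 35.3% and 14.9%. SP/KLF letters matched in 67.4%, 76.7% and 35.7%. AP-1 letters matched in 6.32%, 5.43% and 7.81%, TEAD letters in 12.6%, 11.6% and 14.7%, and NF-kB letters in 10.5%, 7.46% and 5.82%. E-box letters matched in 14.7%, 9.25% and 7.15%, RUNX letters in 10.5%, 10.9% and 16.8%, CRE letters in 2.11%, 4.0% and 1.79%, and NRF1 letters in 2.11%, 2.81% and 0.971%. A match is a description of the letters and not a bound site.

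**Figure D5:**
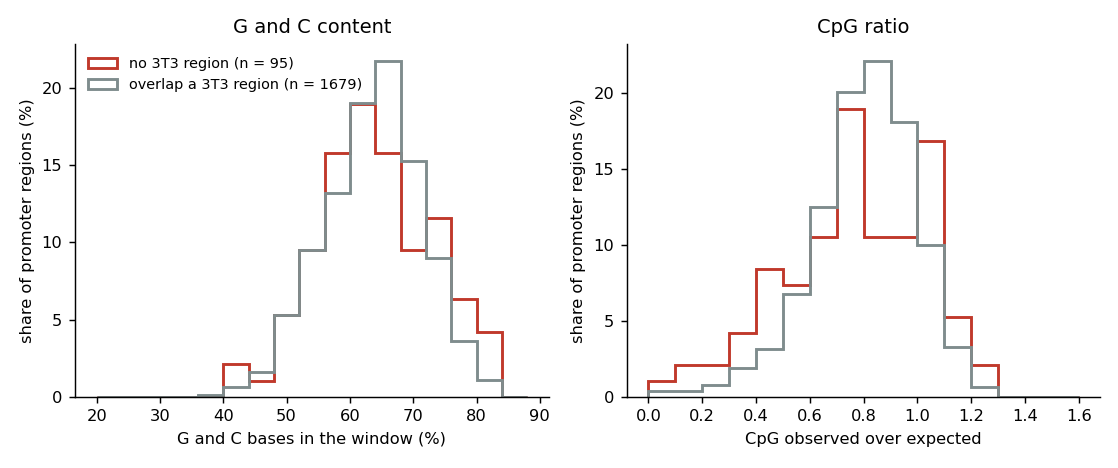
G and C content (left, % of bases) and CpG ratio, observed over expected (right), of RefSeq start windows of 300 bases that overlap promoter regions with no 3T3 counterpart (95, red) or promoter regions that overlap a 3T3 region (1679, grey, counted per region). Lines give the share of regions per bin; both sets centre near 64% G and C, and the red line has more regions at CpG ratios under 0.6.

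Regions without a gene name included the strongest and the widest of the set. The widest, at chr4:156341470-156343735 (2265 bp), held 144 in floxed and 8 in knockout cells, the lowest log2 ratio among regions without a symbol and with at least median signal (-4.01). The nearest coding gene in RefSeq was Vmn2r129, a vomeronasal receptor gene, 3103 bp away. A region inside Dock2, which encodes an exchange factor of leukocytes, at chr11:34681721-34683021 held 76 and 19, and one on chromosome X (75665381 to 75666571) held 48 and 15, so the 3 widest regions all had more signal in floxed cells. A region at chr14:80657301-80657592 held 60 and 4 and lay 1069317 bp from the nearest 3T3 region. In the other direction, a region inside Nkain1 at chr4:130557944-130558314 held 1 and 29 and one at chr11:20357808-20358113 held 1 and 22. Others had like signal in both genotypes, such as chr10:91183386-91183824, 1853 bp from Tmpo, with 64 and 49, and chr15:93744320-93744803 with 50 and 45. Of the 750 regions without a gene, 349 (46.5%) had their centre inside a coding gene of RefSeq, against 45.9% for shared regions, and the other 401 lay a median 54497 bp from one, against 39576 bp.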

How the data were processed

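The submitters' processing notes list STAR 2.4.2a, Trimmomatic 0.33, MACS2, Picard 1.136, DESeq2, deepTools, FastQC and bedtools, with no roles, and the build mm10. Per the labels, 50000 cells entered each library. The authors deposited 1 table per knockout, and its values are a score: background-corrected signal, scaled by the DESeq method within its table, per the labels' name for it, and rounded to whole numbers. The design text states 2 biological replicates per genotype, and no source used here says how they became 1 column. The depth behind the values is therefore unknown, and no counting interval is given. The deposited distance to the start was used as it stands, and the deposited fraction of each region inside its gene was not used. Whether starts count from 0 or 1 is not stated, which changes no membership here: the closest member lay 4 bp from a 3T3 row and the smallest overlap was 3 bp.

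Ratios are log2((knockout + 1)/(floxed + 1)) with a pseudocount of 1, and a region was counted as higher or lower at 2-fold. Named regions were the strongest, the most differing and the widest by fixed ranks, and all members of the 20 gene lists. A few genes are not reported here, and the genes known from epithelia are counted without them. The members and lists were chosen with earlier results of these data known. RefSeq genes (GRCm38.p6, the assembly of mm10) overlapped the deposited position for 2359 of 2361 shared symbols. No genome was used, so motifs were searched in RefSeq start windows in place of whole regions, and sequences of regions away from starts are not shown. Overlap, ratio and interval functions were tested on simulated data. Python 3.11.15, pandas 2.3.3, scipy 1.17.1 and statsmodels 0.14.6 were used.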

Additional observations from a re-analysis of the deposited data

How the results depend on the processing

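Of 58 recomputed values, 36 stayed within the interval of the reported value (for counts, within 1.5 times) and 22 moved beyond it. Only the median log2 ratio could change sign, which it did in 0 settings. Counts, shares, widths and signals cannot be negative. Some of the 36 could not have moved. All 1043 regions passed the filter on low values, so leaving it out repeated each value. With whole-number signals a pseudocount of 0.5 makes the same 2-fold calls as 1, so it gave 399 and 55 again. Intervals here describe the spread over regions, not over cultures. Counting a gap of up to 1000 bp as overlap, or asking for an overlap of at least 50%, moved none of them and gave 993 and 1083 regions. Restricted to mean signal at or above the median of all rows, 252 regions remained, with 16.7% promoters and 75% without a gene. Their median width was 322 bp, their median signal 20.5 and their median log2 ratio 0.25. Of them, 53 (21.0%) were higher and 24 (9.52%) lower. Of all rows at that signal, 5.7% were higher and 13.0% lower. The promoter share was 16.7% within 1000 bp and 27.7% within 5000 bp of a start. With a pseudocount of 5 the median log2 ratio was 0.47, with 253 regions 2-fold higher and 28 lower. After quantile scaling these values were 0.32, 244 and 87, and after loess scaling 0.17, 167 and 100. Of all rows, 9.5% were higher and 5.69% lower with a pseudocount of 5. Those shares were 10.5% and 10.0% after quantile scaling, and 8.0% and 8.83% after loess scaling. The median was 0.86 with nuclear sums made equal. At 3-fold, 225 were higher and 24 lower, and the shares of all rows at that limit are not given here. The cause of these shifts was not tested. No paired analysis was possible because each genotype had 1 column and no replicate numbers, and no replicate could be left out.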

Other observations

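Of the 750 regions without an assigned gene in the deposited table, 21 overlapped a transcription start window of RefSeq. The region at the start of Slc6a19, which encodes a neutral amino acid transporter of the kidney and gut brush border, held 30 in floxed and 31 in knockout cells. Regions at starts of Prdm1, which encodes the repressor Blimp-1, and of Lmo7, an actin-associated protein gene, held 3 and 8, and 1 and 14. Starts of Elf1, Zbtb20, Cdan1 and Bclaf3 held 7 and 7, 14 and 16, 23 and 16, and 19 and 17. These 4 genes were within 2-fold. The start of Gm34700, a gene model, held 8 and 36.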
